A study of Rattus norvegicus with 12 samples.

Results

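The AP-1 genes followed here are Fos, Fosb, Fosl1, Fosl2, Jun, Junb, Jund and Atf3. They were taken by symbol from a table of 22384 lines that carry a gene symbol, in which each of the 8 has a single line, and all 8 passed the expression filter that left 11860 lines for testing. RNA came from hepatic progenitor cells (HPCs) of the rat at gestation day 13.5, in 12 RNA-seq libraries that form 6 groups of 2. The groups are wild type untreated, wild type with TNFα for 1 hour, cells labelled Tnfrsf1α-/- untreated and with TNFα for 1 hour, and cells labelled Tnfrsf1β-/- untreated and with TNFα for 1 hour. TNFα is a cytokine that signals through TNFR1 and TNFR2, the products of Tnfrsf1a and Tnfrsf1b. The labels give no strain background, no allele beyond these names, and no TNFα dose. Nor do they say whether replicates were separate cultures or animals, so each p-value reflects variation among libraries that could be technical.

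AP-1 is a transcription factor made of pairs of basic leucine zipper proteins. FOS proteins bind DNA only after pairing with a JUN protein, while JUN proteins also pair with each other and with members of the ATF family. Fos, Fosb, Jun, Junb and Atf3 are immediate early or stress genes, whose RNA rises briefly after growth factors, cytokines or damage, and Jund is known as the steadier member. In liver, Fos and Jun are known for their rapid rise after partial removal of the organ, and c-Jun is needed for the survival of fetal liver cells in the mouse. Below TNF receptors, the kinase JNK phosphorylates JUN proteins and so raises transcription of the Jun gene.

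Levels are log2(FPKM + 1), where FPKM is a fragment count scaled to transcript length and to the size of the library, a value that can be compared between genes. Differences are on that same scale and come from limma, fitted to all tested genes over the 12 libraries. A gene is said to rise, fall or pass where its adjusted p, by the Benjamini-Hochberg method over all tested genes, is under 0.05. The total number of fragments behind each library is unknown.

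Several facts of the libraries bear on every value below. Tnfrsf1a was not lower under the label Tnfrsf1α-/- (5.65 to 6.13) than in wild type (5.15 to 5.65), and Tnfrsf1b was listed at 0 in untreated wild type as well as in all 4 libraries labelled Tnfrsf1β-/- (it was highest, at 4.09, in replicate 2 of the label Tnfrsf1α-/- with TNFα), so directions drawn from either knockout rest on the labels. The 4 untreated knockout libraries had a total FPKM between 447554 and 472935, and the other 8 one between 1071530 and 2085916. The summed FPKM of 12 hepatic progenitor and bile duct markers was 373 to 500 in the 4 untreated knockout libraries, the same libraries that were highest in Fos, and 12024 to 55897 in the other 8. Of these markers Krt7 was at 7.64 to 7.99 against 13.50 to 15.67, and Sox9 at 0.02 to 0.31 against 5.21 to 9.67. Krt7 alone made up most of the sum in the other 8 libraries, so the sums mainly compare its level. By detection the order differed, as 8 of the 12 markers were at 0 in both libraries of untreated wild type. In the untreated label Tnfrsf1α-/- and untreated Tnfrsf1β-/- this held for 6 and 4. With TNFα it held for 2 in wild type, 3 under the label Tnfrsf1α-/- and 5 in Tnfrsf1β-/-. Afp, Epcam and Dlk1 were at 0 in both libraries of each group other than treated wild type, while the median marker level was 5.71 and 5.98 in treated wild type and at most 0.40 elsewhere. The summed FPKM of 10 hepatocyte markers was 4777 to 4967 in treated wild type and 8.96 to 26.6 elsewhere, and that of 9 mesenchymal and stellate markers was 230 to 255 in treated wild type and 2171 to 6297 elsewhere. Endothelial markers summed to at most 4.27, erythroid ones to at most 3.40 and macrophage and leukocyte ones to 15.7 to 49.8. The replicates labelled Tnfrsf1α-/- with TNFα resembled each other least (Spearman's rho = 0.782 across tested genes, against 0.961 to 0.996 in the other 5 groups). Replicate 1 of that group was closer to the untreated knockouts (rho of 0.851 to 0.859) and to untreated wild type (0.854 and 0.79) than to replicate 2. Replicate 2 had a rho of 0.611 to 0.635 with the untreated knockouts, so the group mean averages unlike libraries. Untreated wild type and treated Tnfrsf1β-/- resembled each other about as closely as replicates do (rho of 0.953 to 0.983), while untreated and treated wild type had a rho of 0.638 to 0.646. The untreated knockout labels were likewise about as close to each other as replicates are (rho of 0.974 to 0.981). A result that they share below need not be made of separate observations. Whether any label is exchanged was not tested, and each difference with TNFα or between genotypes below holds only as far as the labels do. The part of these differences between libraries in the AP-1 results was not tested. In bulk RNA, fewer cells of a type and less RNA per cell cannot be told apart.

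Across the 6 groups the AP-1 genes followed 3 main patterns. Fos, Fosb, Jun, Fosl2 and Atf3 were highest or close to highest in the untreated knockout libraries. Junb was highest in wild type and the label Tnfrsf1α-/- with TNFα. Jund moved least, over 1.46 log2 units between its lowest and highest library, against 2.55 for Fosl2 and 6.28 for Fosl1, the narrowest and widest of the others. The libraries of untreated wild type and treated Tnfrsf1β-/- overlapped for 7 of 8 genes, Jund being the exception. They thus failed to overlap for 1 of 8, where 29.8% of all tested genes did not overlap. With 8 genes, this count is not read as particular to the AP-1 genes. Treated wild type and the treated label Tnfrsf1α-/- did not overlap for 4 of 8 (70.5% of all genes), and the untreated knockouts did not overlap for 7 of 8 (67.4% of all genes).

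**Figure D1:**
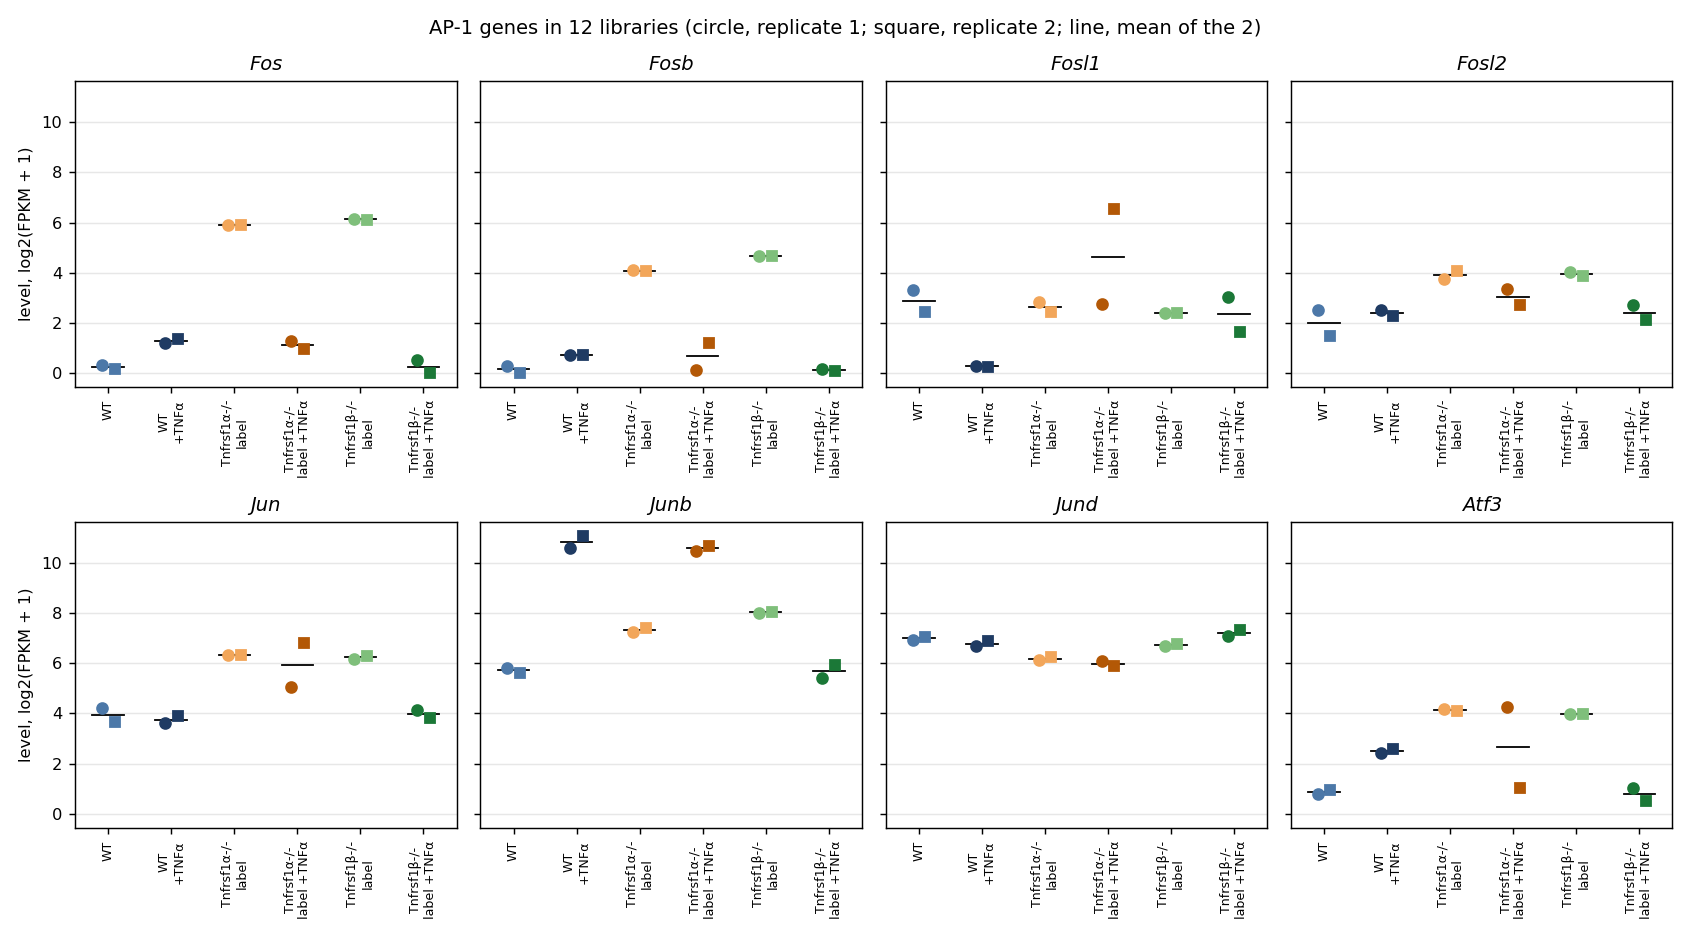
Level of each AP-1 gene, log2(FPKM + 1) on the vertical axis, in the 6 groups on the horizontal axis; the circle is replicate 1, the square replicate 2 and the line their mean. Fos and Fosb stand out in the 4 untreated knockout libraries, Junb in wild type and the label Tnfrsf1α-/- with TNFα, and the replicates of that label with TNFα lie apart for Fosl1, Jun and Atf3.

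Fos encodes c-Fos, the archetypal immediate early AP-1 subunit. It was at 5.92 and 5.89 in untreated cells labelled Tnfrsf1α-/- and at 6.15 and 6.12 in untreated Tnfrsf1β-/-. Untreated wild type had 0.33 and 0.16 and treated wild type 1.22 and 1.37; under the label Tnfrsf1α-/- with TNFα it was at 1.30 and 0.96, and in treated Tnfrsf1β-/- at 0.51 and a listed 0. The 4 untreated knockout libraries were thus far above the other 8, with no overlap. The order of groups ran from untreated Tnfrsf1β-/- through the untreated label Tnfrsf1α-/-, treated wild type and the treated label Tnfrsf1α-/- to treated Tnfrsf1β-/- and untreated wild type; overlap was seen between the treated wild type and the treated label Tnfrsf1α-/-, and in the last pair. Within each library, a rank that a single factor per library cannot change, Fos lay above 87.8% to 90.7% of tested genes in the untreated knockouts and above at most 20.0% in the others.

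Against untreated wild type, Fos was higher by 5.66 (SE 0.23, adjusted p = 5.6e-07) under the label Tnfrsf1α-/- and by 5.89 (SE 0.23, adjusted p = 4.7e-07) in Tnfrsf1β-/-. With TNFα it fell, by a difference of -4.78 (adjusted p = 7.0e-07) under the label Tnfrsf1α-/- and of -5.88 (adjusted p = 5.1e-07) in Tnfrsf1β-/-, whereas in wild type it rose by 1.05 (SE 0.23, adjusted p = 0.00631). That rise ended at an FPKM of 1.33 and 1.58, from 0.255 and 0.119, and a pseudocount of 0.1 in place of 1 made it 2.47. The response itself differed from that of wild type by -5.82 (SE 0.33, adjusted p = 1.7e-06) and -6.93 (SE 0.33, adjusted p = 4.1e-07), both measured against the same 4 wild-type libraries; with a pseudocount of 0.1 the second was -10.73. With TNFα, Fos was lower in Tnfrsf1β-/- than in wild type (-1.04, adjusted p = 0.00593; -2.77 with a pseudocount of 0.1), and the label Tnfrsf1α-/- differed from wild type by -0.17 (adjusted p = 0.576).

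Fosb encodes FosB, a close relative of c-Fos that is induced by the same signals and, as a shorter splice form, can persist in neurons. Its level was 4.10 and 4.05 in the untreated label Tnfrsf1α-/- and 4.66 in both untreated Tnfrsf1β-/- libraries. Elsewhere it was low, at 0.30 and a listed 0 in untreated wild type, 0.73 and 0.74 in treated wild type, 0.13 and 1.22 in the treated label Tnfrsf1α-/-, and 0.17 and 0.10 in treated Tnfrsf1β-/-. Fosb therefore set the same 4 libraries apart as Fos did, and between the knockouts it was higher in Tnfrsf1β-/- without overlap. The differences from untreated wild type were 3.93 (SE 0.32, adjusted p = 5.5e-05) and 4.51 (SE 0.32, adjusted p = 2.3e-05), or 6.46 and 7.07 with a pseudocount of 0.1. With TNFα it fell by 3.40 (adjusted p = 8.0e-05) under the label Tnfrsf1α-/- and by 4.52 (adjusted p = 2.3e-05) in Tnfrsf1β-/-; the first of these calls was lost when only the 2 groups compared were fitted (adjusted p = 0.0687). In wild type the difference was 0.59 and did not pass (adjusted p = 0.156), although it did without replicate 1 (adjusted p = 0.00646) or replicate 2 (adjusted p = 0.00548) of the treated label Tnfrsf1α-/-. With a pseudocount of 0.1 the fall in Tnfrsf1β-/- was -6.95, and the differences in response from wild type, -3.99 and -5.11, were -7.01 and -9.03. The replicates of the treated label set the direction of Fosb against treated wild type, which was 0.49 (adjusted p = 0.0461) without replicate 1 and -0.61 (adjusted p = 0.0117) without replicate 2.

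Fosl1 encodes Fra-1, a FOS protein without the strong activation domain of c-Fos that is itself an AP-1 target and is known for its link to migrating, mesenchymal cells. It was at 0.30 and 0.24 in treated wild type and at 3.31 and 2.45 in untreated wild type. In the untreated knockouts it was at 2.82, 2.44, 2.38 and 2.39, in treated Tnfrsf1β-/- at 3.05 and 1.64, and in the treated label Tnfrsf1α-/- at 2.77 and 6.52. Treated wild type was thus below all 10 other libraries, and replicate 2 of the treated label Tnfrsf1α-/- far above them. The difference in wild type was -2.61 and did not pass (adjusted p = 0.0626), but it did without replicate 1 (adjusted p = 0.00111) or replicate 2 (adjusted p = 0.00102) of the treated label Tnfrsf1α-/-, with only the wild-type groups (adjusted p = 0.00564), after median-ratio scaling (adjusted p = 0.0458) and with a pseudocount of 0.1 (adjusted p = 0.0121).

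With TNFα, Fosl1 was higher under the label Tnfrsf1α-/- than in wild type by 4.38 (adjusted p = 0.0082). Without replicate 1 or 2 of treated wild type this was no longer called (adjusted p = 0.0529 and 0.0599), and without replicate 2 of the treated label the difference was 2.50. The difference in response, 4.62 (SE 1.43, adjusted p = 0.0363), lost its call in 10 of 18 alternatives and was 2.75 without replicate 2 of the treated label. The summed FPKM of the mesenchymal markers noted above was also lowest in treated wild type, as was their median level (0.02 and 0.13). Not each of them followed this: Col1a1 was at 7.98 and 7.82 there and lower, at 7.19 and 6.14, in the treated label Tnfrsf1α-/-. The part of cell make-up in the level of Fosl1 was not tested.

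Fosl2 encodes Fra-2, the other FOS protein that lacks a strong activation domain. It was at 3.77 and 4.05 in the untreated label Tnfrsf1α-/- and at 4.01 and 3.86 in untreated Tnfrsf1β-/-. The remaining groups lay lower, at 2.50 and 1.49 in untreated wild type, 2.51 and 2.26 in treated wild type, 3.37 and 2.71 in the treated label Tnfrsf1α-/-, and 2.70 and 2.10 in treated Tnfrsf1β-/-. The pattern repeats that of Fos over a narrower span, with the 4 untreated knockout libraries above the other 8. Against untreated wild type the differences were 1.91 (SE 0.38, adjusted p = 0.0036) and 1.94 (SE 0.38, adjusted p = 0.00334), or 1.20 and 1.23 after quantile normalization. With TNFα Fosl2 fell by 1.54 (adjusted p = 0.00817) in Tnfrsf1β-/-, a call lost without treated replicate 2 (adjusted p = 0.0654). This difference was -0.87 with median-ratio scaling, and quantile normalization gave -0.71. The difference under the label Tnfrsf1α-/- was -0.87 (adjusted p = 0.138; 0.037 without its treated replicate 1 and 0.0311 after quantile normalization). In wild type it was 0.39 (adjusted p = 0.433).

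Jun encodes c-Jun, the partner of c-Fos and the main substrate of JNK. It was at 6.34 and 6.33 in the untreated label Tnfrsf1α-/-, 6.18 and 6.28 in untreated Tnfrsf1β-/-, and 5.07 and 6.82 in the treated label Tnfrsf1α-/-. The other 3 groups were at 4.22 and 3.64 in untreated wild type, 3.60 and 3.88 in treated wild type, and 4.13 and 3.80 in treated Tnfrsf1β-/-. These last 3 overlapped with one another and lay below the first 3 without overlap. In wild type TNFα changed Jun by -0.19 (SE 0.48, adjusted p = 0.764).

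Untreated, Jun was higher than in wild type by 2.41 (SE 0.48, adjusted p = 0.00358) under the label Tnfrsf1α-/- and by 2.30 (SE 0.48, adjusted p = 0.00437) in Tnfrsf1β-/-. With TNFα it fell by 2.27 (adjusted p = 0.00397) in Tnfrsf1β-/-, and under the label Tnfrsf1α-/- the difference was -0.39 (adjusted p = 0.569; -1.26 and 0.0152 without treated replicate 2). Treated cells of that label had more Jun than treated wild type, by 2.20 (SE 0.48, adjusted p = 0.00632), a value of 1.33 without replicate 2 of the treated label and a call lost without treated wild-type replicate 1 (adjusted p = 0.0511) and with only these 2 groups (adjusted p = 0.104).

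Junb encodes JunB, which pairs with FOS proteins, activates a narrower set of genes than c-Jun and can restrain it. It had the largest response to TNFα in wild type of the 8 genes. Its level was 5.80 and 5.63 in untreated wild type and 10.60 and 11.08 with TNFα, which in FPKM is 54.9 and 48.5 against 1556 and 2157. Under the label Tnfrsf1α-/- it was at 7.24 and 7.41 untreated and at 10.47 and 10.68 with TNFα. In Tnfrsf1β-/- it was at 8.01 and 8.03 untreated and at 5.42 and 5.93 with TNFα. Treated wild type overlapped with the treated label Tnfrsf1α-/-, untreated wild type overlapped with treated Tnfrsf1β-/-, and the untreated knockouts lay between these pairs.

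With TNFα, Junb thus rose by 5.12 (SE 0.23, adjusted p = 2.0e-07) in wild type and by 3.25 (SE 0.23, adjusted p = 1.1e-05) under the label Tnfrsf1α-/-, and fell by 2.35 (SE 0.23, adjusted p = 1.5e-04) in Tnfrsf1β-/-. The response was smaller under the label Tnfrsf1α-/- than in wild type by 1.87 (-1.87, SE 0.33, adjusted p = 0.00299) and differed by -7.47 (SE 0.33, adjusted p = 2.5e-07) in Tnfrsf1β-/-. The smaller response started from a higher untreated level, by 1.61 (adjusted p = 8.5e-04), and ended at one that differed from treated wild type by -0.27 (adjusted p = 0.367). In treated Tnfrsf1β-/- Junb was lower than in treated wild type by 5.17 (-5.17, adjusted p = 1.9e-07). None of the 12 leave-one-out fits, nor any other alternative fit, ended a Junb call that passed in these 9 comparisons. After quantile normalization the rise in wild type was 3.96, from 5.12, and that under the label Tnfrsf1α-/- was 1.53, from 3.25. The difference with TNFα in Tnfrsf1β-/- was then -3.53, and treated Tnfrsf1β-/- differed from treated wild type by -3.96. The untreated difference of the label Tnfrsf1α-/- was 1.05 with median-ratio scaling. Quantile normalization gave 2.53 for it and 3.53 for Tnfrsf1β-/-.

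**Figure D2:**
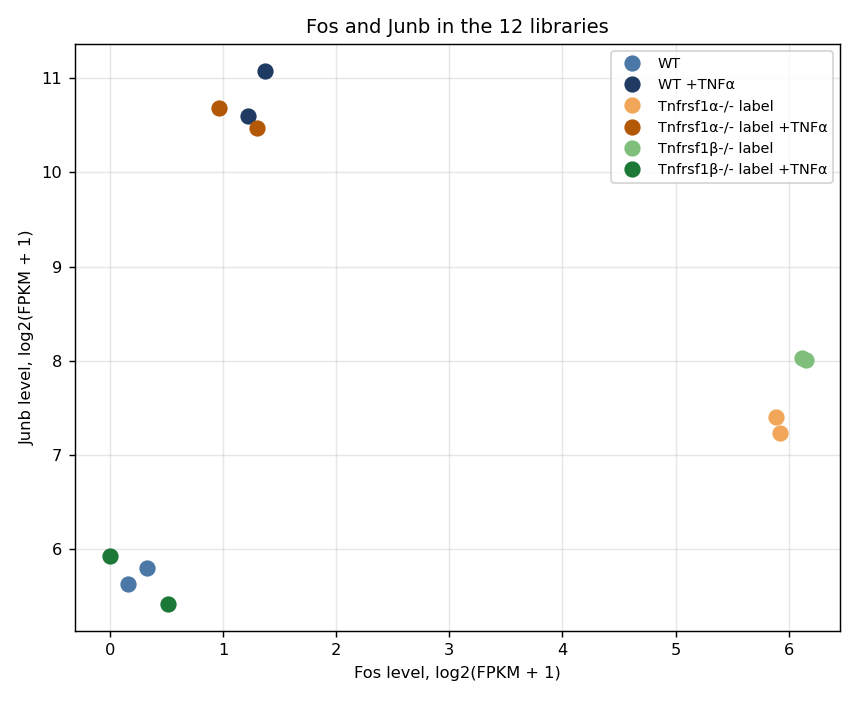
Level of Junb (vertical axis) against Fos (horizontal axis), both log2(FPKM + 1), with 1 point for each of the 12 libraries. Untreated wild type and treated Tnfrsf1β-/- lie at low Fos and low Junb, treated wild type and the treated label Tnfrsf1α-/- at low Fos and high Junb (10.47 to 11.08), and the 4 untreated knockout libraries at high Fos (5.89 to 6.15) and intermediate Junb (7.24 to 8.03).

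Jund encodes JunD, the JUN protein that is present in resting cells. Its level was 6.92 and 7.06 in untreated wild type and 6.67 and 6.88 in treated wild type. Under the label Tnfrsf1α-/- it was 6.14 and 6.23 untreated and 6.10 and 5.87 treated. Untreated Tnfrsf1β-/- had 6.69 and 6.78, and treated Tnfrsf1β-/- 7.07 and 7.33. Jund lay above 82.8% to 94.4% of tested genes in the 12 libraries. By level, the lowest 4 libraries were those labelled Tnfrsf1α-/-. By this rank the order differed, as treated wild type (87.1% and 88.2%) lay below the untreated label Tnfrsf1α-/- (89.9% and 90.7%). Under that label Jund was lower than in wild type by 0.81 (-0.81, SE 0.18, adjusted p = 0.00511) untreated and by 0.79 (-0.79, SE 0.18, adjusted p = 0.00662) with TNFα. After median-ratio scaling the first was -1.36. After quantile normalization both missed the threshold (adjusted p = 0.247 and 0.0526), as did the second with only these 2 groups (adjusted p = 0.0875). TNFα changed it by -0.22 (adjusted p = 0.336) in wild type and by -0.20 (adjusted p = 0.409) under the label Tnfrsf1α-/-. The rise of 0.47 in Tnfrsf1β-/- (adjusted p = 0.0456) was 1.24 (adjusted p = 0.00394) after median-ratio scaling and turned to -0.48 after quantile normalization. It lost its call without treated replicate 2 (0.34, adjusted p = 0.204), without either untreated Tnfrsf1β-/- replicate (adjusted p = 0.191 and 0.122) and without either untreated replicate labelled Tnfrsf1α-/- (adjusted p = 0.0744 each).

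The promoters of Junb and Jund are shown because Junb had the largest difference with TNFα in wild type of the 8 genes and Jund the narrowest range over the 12 libraries. The sequences are the 250 bases before the annotated start, 5′ to 3′ on the gene's strand, from RefSeq on the rat build GRCr8; 5 of the 8 genes, these and Fosb, Fosl1 and Fosl2, had such a window, and Fos, Jun and Atf3 are named only. The Junb window is chr19:40080876-40081125 on the + strand and the Jund window is chr16:18769772-18770021 on the - strand. Capitals mark a TATAAA stretch in Junb, searched after the windows had been read, and a TGACGTCA stretch in Jund.
Junb: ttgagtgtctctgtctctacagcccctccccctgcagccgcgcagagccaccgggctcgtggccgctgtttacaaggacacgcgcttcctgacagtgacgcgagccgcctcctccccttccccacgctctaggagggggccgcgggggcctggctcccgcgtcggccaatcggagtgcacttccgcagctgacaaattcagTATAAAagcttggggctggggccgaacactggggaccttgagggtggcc
Jund: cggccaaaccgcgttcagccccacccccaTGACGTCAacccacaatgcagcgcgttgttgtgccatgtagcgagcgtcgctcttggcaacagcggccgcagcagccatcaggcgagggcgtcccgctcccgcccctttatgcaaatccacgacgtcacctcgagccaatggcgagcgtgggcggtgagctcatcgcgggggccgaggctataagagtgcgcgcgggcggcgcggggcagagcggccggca

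TGACGTCA is the CRE, the element bound by CREB and ATF proteins and by some AP-1 pairs, and its copy in Jund begins 221 bases before the start. It is its own reverse complement, and 1.59% of 33469 RefSeq windows of the same length hold it. TGACTCA, the AP-1 element or TRE, was searched on both strands and was in none of the 5 windows, against 4.05% of all windows. The CArG box bound by serum response factor (1.5% of windows) and the NF-kB site (3.54%) were likewise in none of the 5. TATAAA, on the gene's strand only, was in the Junb window alone of the 5, 49 bases before the start, and is in 8.06% of windows. These matches describe the letters of these windows only; elements farther away were not searched.

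Atf3 encodes ATF3, a stress-induced member of the ATF family that pairs with JUN proteins and as a pair with itself represses transcription. It was at 4.16 and 4.11 in the untreated label Tnfrsf1α-/- and at 3.96 and 3.97 in untreated Tnfrsf1β-/-. Wild type had 0.81 and 0.95 untreated and 2.41 and 2.57 with TNFα, and Tnfrsf1β-/- with TNFα had 1.05 and 0.52. Under the label Tnfrsf1α-/- with TNFα the replicates were at 4.26 and 1.03, so that 1 was as high as the untreated libraries and the other as low as untreated wild type.

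Untreated, Atf3 was higher than in wild type by 3.25 (SE 0.81, adjusted p = 0.00962) under the label Tnfrsf1α-/- and by 3.08 (SE 0.81, adjusted p = 0.0122) in Tnfrsf1β-/-. The first call was lost without untreated replicate 1 of that label (adjusted p = 0.0502), and the second without untreated wild-type replicate 2 (adjusted p = 0.0566) or either untreated Tnfrsf1β-/- replicate (adjusted p = 0.0547 and 0.0567). With TNFα it fell by 3.18 (adjusted p = 0.00923) in Tnfrsf1β-/-, which did not pass without treated replicate 2 (adjusted p = 0.0617). In wild type both treated libraries were above both untreated ones, by 1.61 on average, and the difference missed the threshold (SE 0.81, adjusted p = 0.135). The shared estimate of spread holds the split pair of the label Tnfrsf1α-/- with TNFα, and without replicate 1 or replicate 2 of that group the wild-type difference passed (adjusted p = 1.7e-04 and 2.0e-04). The difference of that treated group from treated wild type turned with the replicate kept, from -1.46 (adjusted p = 0.00138) without replicate 1 to 1.77 (adjusted p = 3.8e-04) without replicate 2.

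**Figure D3:**
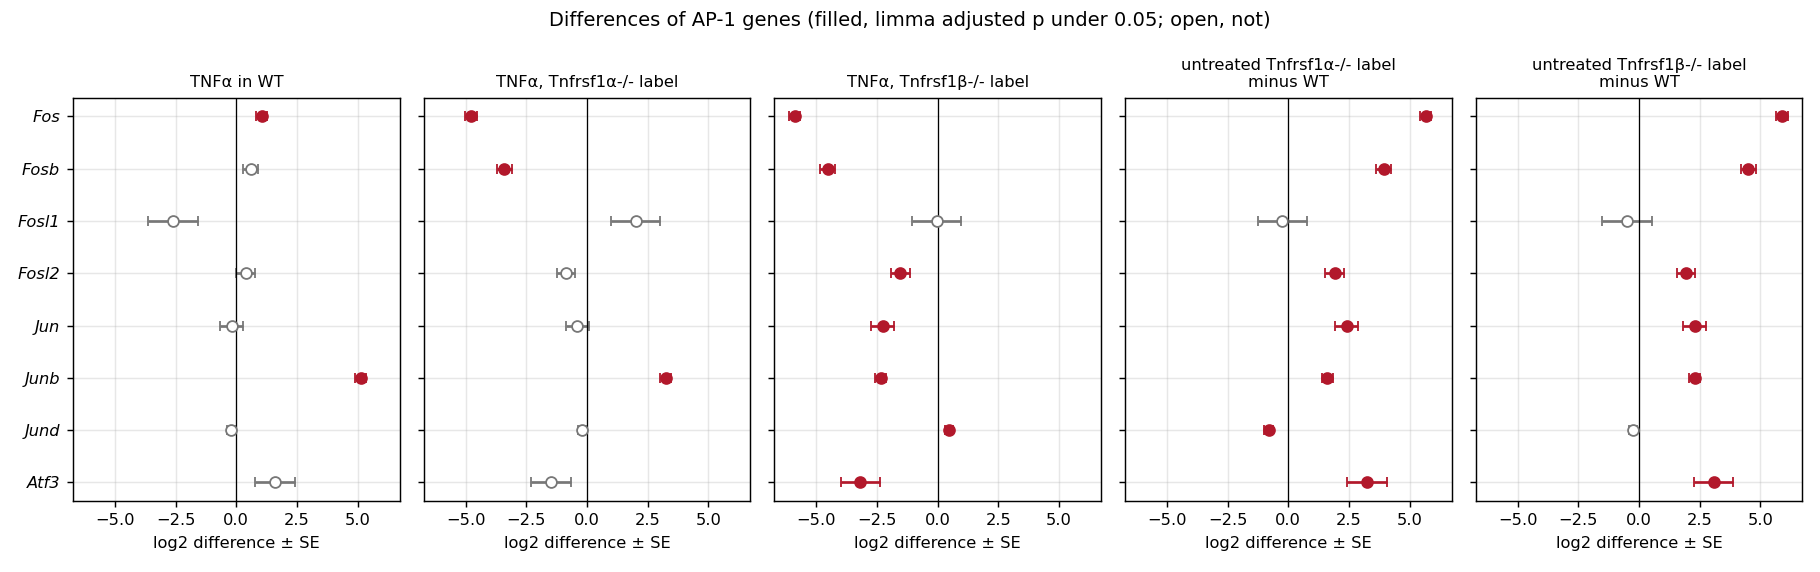
Log2 difference with its SE (horizontal axis, log2(FPKM + 1) scale) of each AP-1 gene (vertical axis) for TNFα in each genotype and for each untreated knockout label against wild type; filled points passed at a limma adjusted p under 0.05, open ones did not. With TNFα in wild type Fos and Junb are filled and to the right of 0, and in the untreated knockouts 6 of 8 genes are filled to the right.

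Counted over the 8 genes, 2 rose with TNFα in wild type (Fos and Junb), where 47.2% of all tested genes were called, 31.9% higher and 15.3% lower. Under the label Tnfrsf1α-/-, where 17.3% were called (9.81% higher, 7.5% lower), Junb rose and Fos and Fosb fell. In Tnfrsf1β-/-, where 60.5% were called (17.6% higher, 42.9% lower), 6 fell, Jund rose and Fosl1 did not pass. The median difference of the 8 was 0.49, -0.63 and -2.31 in these 3 comparisons, beside 0.32, -0.02 and -0.66 for all tested genes. In untreated cells 6 were higher and Jund lower under the label Tnfrsf1α-/-, and the same 6 were higher in Tnfrsf1β-/-; 53.7% and 54.4% of all genes were called there, with 36.7% and 36.9% higher and 17% and 17.5% lower. The medians of the 8 were 2.16 and 2.30, beside 0.48 and 0.47 for all genes. These comparisons share the untreated wild-type libraries with the TNFα comparison in wild type. Each also shares its untreated knockout libraries with the TNFα comparison of the same label. A higher untreated level and a fall with TNFα are therefore not independent results.

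In treated cells, with 45.2% of all genes called (22.7% higher, 22.4% lower), Fosl1 and Jun were higher and Jund lower under the label Tnfrsf1α-/- than in wild type. In treated Tnfrsf1β-/-, with 51% called (14.7% higher, 36.3% lower), Fos and Junb were lower. The difference in response from wild type passed for 4 genes under the label Tnfrsf1α-/-, 1 higher and 3 lower, where 34.8% of all genes passed (12.8% higher, 22% lower). In Tnfrsf1β-/- it passed for 7, 1 higher and 6 lower, where 64.5% did (17.3% higher, 47.3% lower). Without replicate 1 of treated wild type, 1 of the 8 genes in place of 3 was called between the treated label Tnfrsf1α-/- and wild type, and 4 in place of 7 for the response of Tnfrsf1β-/-. Without treated replicate 2 of Tnfrsf1β-/-, 4 in place of 7 were called for TNFα in these cells and 4 for the difference in response. Leaving out replicate 1 of the treated label Tnfrsf1α-/- gave more calls among the 8 for TNFα in wild type and under the label. It also gave more for each treated knockout label against treated wild type. Leaving out its replicate 2 likewise gave more for TNFα in wild type and for each treated label against treated wild type. The number of all tested genes called also moved with the library left out, so these moves are not particular to the AP-1 genes. The scale between libraries moved the balance of all calls: of the genes called for TNFα, 67.6%, 56.7% and 29.1% were higher in wild type, the label Tnfrsf1α-/- and Tnfrsf1β-/-. Median-ratio scaling gave 49.2%, 47.5% and 49.9%, and quantile normalization gave 45.6%, 34.8% and 44.8%. For the untreated knockouts 68.3% and 67.8% were higher, against 52.0% and 52.5% after median-ratio scaling. In the other comparisons it was 36.9% and 26.8% for the differences in response (51.6% and 49.7% after median-ratio scaling) and 28.8% for treated Tnfrsf1β-/- (54.9%). Fos, Fosb, Fosl2, Jun, Junb and Atf3 kept their untreated knockout calls and directions under both scalings.

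The make-up of the AP-1 transcripts, as shares of their summed FPKM within a library, is left as it is by any single factor per library, such as median-ratio scaling, though not by quantile normalization. Jund made up most of the sum in untreated wild type (57.9% and 66.3%) and in treated Tnfrsf1β-/- (64.8% and 67.0%). Junb made up 92.7% and 93.8% in treated wild type and 91.3% and 85.9% under the label Tnfrsf1α-/- with TNFα. In the untreated knockouts Junb held 36.5% to 46.0%, Jun 12.8% to 19.4% and Fos 12.02% to 14.5%. The 4 FOS genes together held 19.4% to 23.0% there, against 0.271% to 6.76% in the other 8 libraries, without overlap. Atf3 held 2.58% to 4.12% in the untreated knockouts and at most 1.17% elsewhere.

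As a part of total FPKM, the 8 genes summed to 0.0162% and 0.0194% in untreated wild type and to 0.0192% and 0.0203% in treated Tnfrsf1β-/-. In the other 4 groups the sum was 0.0857% to 0.131%. Without Junb, the FPKM of the other 7 genes summed to 151 and 153 in untreated wild type and to 123 and 142 in treated wild type; the higher sum after TNFα was in Junb. In the untreated knockouts the same 7 genes summed to 261 to 311. The treated label Tnfrsf1α-/- had 135 in replicate 1 and 269 in replicate 2, and treated Tnfrsf1β-/- had 165 and 179. These sums of 7 genes are FPKM as listed, not parts of the total, and total FPKM differed between libraries.

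**Figure D4:**
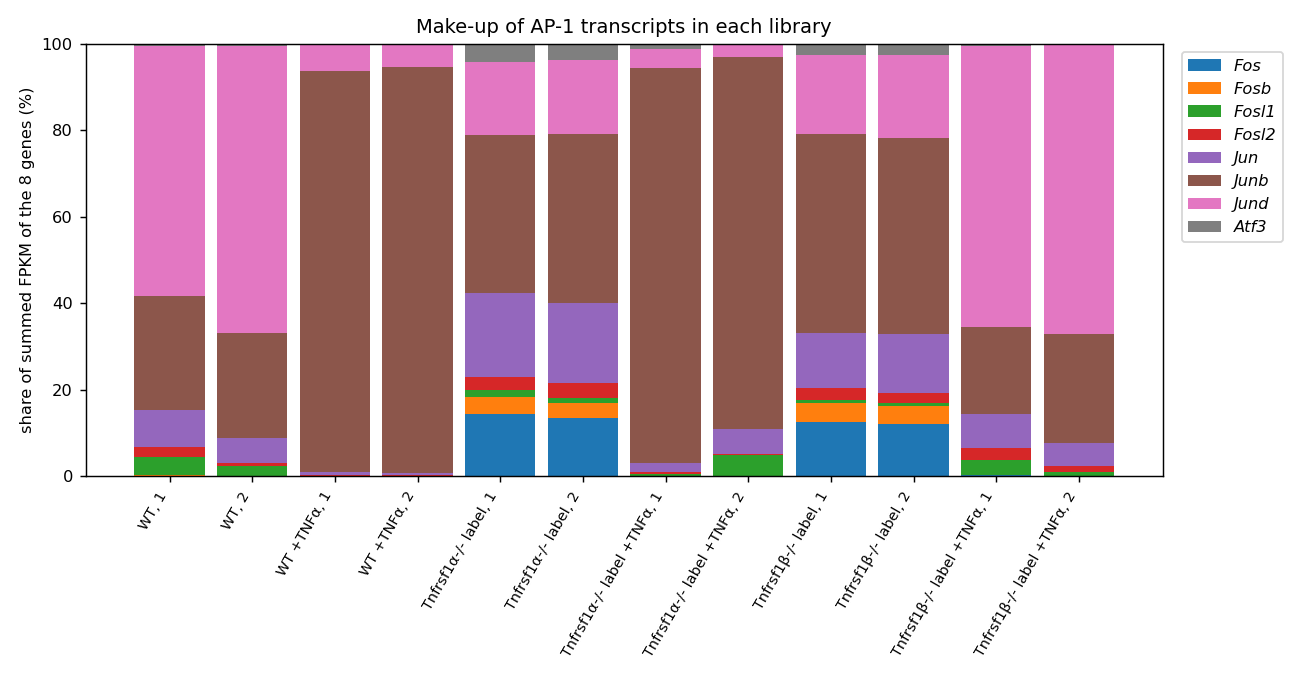
Share of each of the 8 AP-1 genes (colours) in their summed FPKM, in percent on the vertical axis, for each of the 12 libraries on the horizontal axis. Jund fills most of the bar in untreated wild type and treated Tnfrsf1β-/- (57.9% to 67.0%), Junb in treated wild type and the treated label Tnfrsf1α-/- (85.9% to 93.8%), and FOS genes and Jun are visible together in the untreated knockouts.

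The tested genes most like each member were taken by Pearson's r over the 12 libraries, which fall into few clusters, so that r mostly says that a gene separates the same clusters. Fos was most like Apbb3 (r = 0.99) and then its own relative Fosb (0.99), and 68 tested genes had r over 0.95 with it. Without the 4 untreated knockout libraries the r of Fos with Apbb3 was 0.68 and with Fosb 0.58 over 8 libraries. Fosb was most like Gcnt2 (0.99). Jun was most like Tgfbr1 (0.99), Grk5 (0.98) and Map3k14 (0.98), the last of which encodes the NF-kB inducing kinase NIK; over the 8 other libraries these were 0.98, 0.99 and 0.99. Junb was most like the sterol sensor gene Insig1 (0.99), then Amotl2 (0.99) and Cmtm7 (0.99), each at 0.99 without the untreated knockouts as well. Fosl1 was most like Ubash3b (0.97), Btbd6 (0.96) and Snai2 (0.95), the gene for the transcriptional repressor Slug. Fosl2 was most like Zbtb1 (0.99), with 334 genes over 0.95, and Atf3 most like Klhl7 (0.98), App (0.98) and Sh2d4a (0.98). Jund had no gene over 0.95, and the closest, Tmem109, was at 0.92.

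Other genes of the AP-1 pathway were counted from 4 lists of 20 symbols. Their counts stand beside the shares of all tested genes called: 31.9% higher and 15.3% lower with TNFα in wild type, 36.7% higher and 17% lower in the untreated label Tnfrsf1α-/-, and 36.9% higher and 17.5% lower in untreated Tnfrsf1β-/-. The list counts are read as description only. Of other AP-1 and related bZIP factors, 16 were tested; 4 rose with TNFα in wild type, and in untreated cells 8 were higher and 1 lower under the label Tnfrsf1α-/- and 7 higher and 1 lower in Tnfrsf1β-/-. The medians of this list were 0.29, 1.13 and 0.97, beside 0.32, 0.48 and 0.47 for all genes. Cebpb, for the liver and inflammatory factor C/EBPβ, was at 11.35 and 11.26 in untreated wild type, at 4.65 to 5.43 in the untreated knockouts and at 9.64 to 11.73 in the treated libraries. The untreated knockouts were thus lower than untreated wild type (-5.99, adjusted p = 1.1e-06, and -6.48, adjusted p = 7.2e-07). Nfe2l2, for the antioxidant factor NRF2, was higher there by 2.36 (adjusted p = 6.3e-04) and 1.45 (adjusted p = 0.00491).

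Of 18 tested kinases upstream of AP-1, 5 rose and 4 fell with TNFα in wild type (median 0.05), with 47.2% of all genes called there, and, beside 53.7% and 54.4% of all genes called, 9 and 11 were higher and 1 each lower in the untreated label Tnfrsf1α-/- and Tnfrsf1β-/- (medians 0.74 and 1.03). Map3k8, for the kinase TPL2 that feeds the ERK pathway, was at 1.24 and 1.35 in untreated wild type, 3.24 to 3.45 in the untreated knockouts and listed at 0 in both treated wild-type libraries. Map2k6, for a kinase that activates p38, was at 0.09 and 0 in untreated wild type and 3.41 and 3.08 with TNFα (3.20, SE 0.16, adjusted p = 4.3e-07). Rps6ka3, for the kinase RSK2, was higher in the untreated knockouts by 2.72 (adjusted p = 2.7e-04) and 2.52 (adjusted p = 3.8e-04).

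Of 14 tested factors that switch on Fos and Jun genes or act on their RNA or protein, 2 rose and 2 fell in wild type (median -0.19; 47.2% of all genes called), and, beside 53.7% and 54.4% of all genes called, 6 and 7 were higher and 2 and 1 lower in the untreated knockouts (medians 0.93 and 1.20). Zfp36, for tristetraprolin, which destabilises AU-rich immediate early RNAs, was itself high in the untreated knockouts: 5.93 and 6.13 under the label Tnfrsf1α-/- and 7.29 and 7.38 in Tnfrsf1β-/-, against 3.09 to 4.27 in the other 8 libraries. Its relative Zfp36l1 was higher there by 3.25 (adjusted p = 0.00111) and 3.74 (adjusted p = 6.4e-04). Elk3, for a partner of serum response factor, fell with TNFα in wild type by 2.57 (adjusted p = 8.5e-04).

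Of 18 tested known AP-1 target genes, 6 rose and 3 fell with TNFα in wild type (median 0.12), where 47.2% of all genes were called, and in the untreated knockouts 3 and 2 were higher and 5 each lower (medians 0.00 and -0.26), where 53.7% and 54.4% of all genes were called. Areg, for the growth factor amphiregulin, rose by 4.57 in wild type (SE 0.16, adjusted p = 3.0e-08), by 6.08 under the label Tnfrsf1α-/- (adjusted p = 1.5e-08) and by 0.68 in Tnfrsf1β-/- (adjusted p = 0.00563). Ccnd1, for cyclin D1, was lower in the untreated knockouts than in untreated wild type by 4.62 (-4.62, adjusted p = 1.9e-07) and 3.97 (-3.97, adjusted p = 5.1e-07), in the libraries where Fos was highest. Plaur, for the urokinase receptor, fell by 3.77 in treated wild type (adjusted p = 2.5e-06), where Fosl1 was lowest. In the treated label Tnfrsf1α-/- Plaur was at 5.66 and 6.10, where Fosl1 was at 2.77 and 6.52. Whether Fos bears on Ccnd1, or Fosl1 on Plaur, was not tested.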

How the data were processed

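Total RNA was extracted with Trizol and sequenced after Illumina TruSeq preparation, per the labels' protocols. The sources used here name no aligner, quantification tool, build or annotation. The authors deposited 1 table of FPKM on a log2 scale, log2(FPKM + 1), with 12 columns matched to samples by description. The scale and its base were inferred from the values, which reach 16.8. Another base would change every difference and no order of levels within a gene. It would also change every FPKM, sum and share, the set of tested lines, and the fits with median-ratio scaling or a pseudocount of 0.1. Of 22730 lines 346 were blank. The 11860 lines whose FPKM averaged 1 or more across libraries entered a single fit of 6 group means (limma 3.58.1, R 4.3.3), with an intensity trend, no block and no further scaling, in 9 contrasts; p-values are two-sided and Benjamini-Hochberg adjusted within a contrast, at 0.05. The pseudocount of 1 understates changes of low genes. The fit was tested on simulated data. Promoter windows and names came from RefSeq (GRCr8); no position is taken from the authors' build, which is unknown.

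The members, lists, motifs and tests were chosen with earlier results of these data known. All 8 members are reported; from each list the 4 tested genes with the smallest p of the limma F test over the 6 groups could be named, and for each member the 3 genes of highest r. Of the 16 list genes this rule allows, 1 is not reported here and others are left out for length. Alternatives were median-ratio scaling, quantile normalization, a pseudocount of 0.1, no filter, only the groups compared, no treated Tnfrsf1α-/- libraries, a replicate block, leaving out each library, and, added after the data were seen, no untreated knockout libraries.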

Additional observations from a re-analysis of the deposited data

Results flagged for a closer look

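The responses of several AP-1 genes to TNFα differed between genotypes by the test of that difference. Against the response of wild type, the response under the label Tnfrsf1α-/- differed by -5.82 for Fos, -3.99 for Fosb, 4.62 for Fosl1 and -1.87 for Junb (limma adjusted p = 1.7e-06, 2.0e-04, 0.0363 and 0.00299). In Tnfrsf1β-/- it differed by -6.93 for Fos, -5.11 for Fosb, -1.93 for Fosl2, -2.08 for Jun, -7.47 for Junb, 0.68 for Jund and -4.79 for Atf3 (limma adjusted p = 4.1e-07, 2.5e-05, 0.0132, 0.0256, 2.5e-07, 0.0379 and 0.0064). Of these, Fosl2 and Jun lost their calls after median-ratio scaling (-0.89 and -0.88), Fosl2 and Jund after quantile normalization (-0.65 and 0.19), and Jund was 1.94 after median-ratio scaling; over all 19 alternatives Fosl2, Jun and Jund lost the call in 4, 7 and 8, and Fosl1 in 10 of its 18. Both sets of differences use the same wild-type libraries, and 34.8% and 64.5% of all tested genes passed the same tests.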

How the results depend on the processing

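The calls on Fos and Junb kept their direction and side of the threshold in every alternative run. The counts of AP-1 genes called moved for TNFα in wild type from 2 to 4 after quantile normalization and to 5 with only the groups compared or without the treated libraries labelled Tnfrsf1α-/-, for TNFα under that label from 3 to 5 after quantile normalization, for the treated label against wild type from 3 to 0 with only the groups compared (limma; 3 at an unadjusted p under 0.05), and for treated Tnfrsf1β-/- against wild type from 2 to 5 with only the groups compared and to 6 without the treated label; fewer samples carry a fit with only the groups compared, and otherwise the cause was not tested. With 1 library left out, the counts of AP-1 genes were 2 to 5, 3 to 6 and 4 to 7 for TNFα in wild type, the label Tnfrsf1α-/- and Tnfrsf1β-/-, 3 to 6 and 4 to 8 for the differences in response, 6 to 7 and 5 to 6 for the untreated knockouts, and 1 to 5 and 2 to 6 for the treated ones. Over all genes, with 1 library left out, they were 3520 to 7646, 750 to 7001 and 4979 to 8759, then 2392 to 7125 and 6216 to 9287, then 4179 to 8128 and 4198 to 8174, and 3081 to 7716 and 3937 to 7816. For TNFα under the label Tnfrsf1α-/- 2052 genes were called, but 3789 after quantile normalization and 570 with only the groups compared; with only those groups, 2751 in place of 4127 differed in response and 2111 in place of 5356 differed from treated wild type. Jund reversed after quantile normalization for TNFα in Tnfrsf1β-/- (-0.48, from 0.47) and for untreated Tnfrsf1β-/- (0.66, from -0.25), and with 1 library left out the treated label minus treated wild type ran from -1.46 to 1.77 for Atf3 and from -0.61 to 0.49 for Fosb. The differences in response for Fosl2 and Jun in Tnfrsf1β-/- lost their calls after median-ratio scaling (-0.89 and -0.88), the first also after quantile normalization (-0.65), and Jund its own there (0.19), while median-ratio scaling made that of Jund 1.94. Each of these, and Fosl1 under the label Tnfrsf1α-/-, also lost its call with some libraries left out. The median of all genes moved by 0.32 with TNFα in wild type, -0.66 in Tnfrsf1β-/- and 0.48 and 0.47 in the untreated knockouts, against -0.04, -0.05, 0.04 and 0.05 after median-ratio scaling.

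A replicate block changed no call of any AP-1 gene; with it 2675 genes in place of 2052 were called for TNFα under the label Tnfrsf1α-/- and 5896 in place of 5601 in wild type. The replicate numbers were not taken as pairing the libraries, because nothing in the labels says that they do. Differences between replicates nonetheless correlated at over 0.1 in 9 of 15 pairs of groups (-0.17 to 0.24). Without the 4 untreated knockout libraries no AP-1 call changed in the 3 comparisons that do not need them. The number of reads is unknown, so the lowest levels of Fos and Fosb, at under 1 FPKM, carry an unknown counting error, and a listed 0 can be a failed estimate.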
